A study of Homo sapiens with 16 samples.

Results

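*CD34* and 7 further genes, which are stem cell surface genes or genes reported as targets of the transcription factor EVI1, were followed by RNA-Seq in MUTZ-3 cells, an AML cell line with inv(3). The members are *CD34*, *PROM1*, *ITGA6*, *ITGA9*, *ADGRG1*, *ANGPT1*, *SPINK2* and *SETBP1*, taken by symbol from the gene tables, so that 8 of the 60623 genes listed were described. Each symbol has 1 row in every library. Cells were grown in MEMalpha with serum, GM-CSF and medium conditioned by an epithelial bladder carcinoma line, and all groups share this culture and the inv(3) that drives *EVI1*. For PARP inhibition (PARPi), the medium was given olaparib at 10 µM, talazoparib at 1 µM or the vehicle DMSO, and cells were taken at 12, 24 and 48 h, with 1 library of untreated cells from 0 h. For the knockdown, cells were transduced with the lentiviral pLKO.1 vector carrying a non-targeting control (NTC) or 1 of the shRNAs shEVI1-2531 and shEVI1-2532 against *EVI1*, selected with puromycin and harvested at day 3 or day 6. Each of the 16 conditions has 1 library of 1 cell line, so no condition has a replicate. The p-values below test an effect fitted over the time points or days against the departure of single libraries from that fit. They do not measure the spread between repeated cultures. The fits leave 4 residual degrees of freedom for the PARPi effects, 2 for their change with time and 2 for the knockdown. The spread used for a gene therefore also draws on that of all genes tested, and small p-values rest on it.

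EVI1, encoded at *MECOM*, is a zinc-finger transcription factor of hematopoietic stem cells, and its overexpression after inv(3) marks an AML with poor outcome. It activates some stem cell genes directly and represses genes of myeloid differentiation. CD34 is the surface glycoprotein by which hematopoietic stem and progenitor cells are recognised, PROM1 (CD133) is a membrane protein of stem cells, ITGA6 and ITGA9 are α chains of integrins that bind the matrix, ADGRG1 (GPR56) is an adhesion G protein-coupled receptor of leukemic stem cells, ANGPT1 is the ligand of the receptor TEK, SPINK2 is a secreted inhibitor of serine proteases, and SETBP1 is a nuclear protein that binds the protein SET and DNA.

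Counts were scaled to CPM, counts scaled to the same library total. The PARPi libraries held between 55999673 and 72681943 counts and the knockdown libraries between 95523038 and 120716213, so that 3 counts, taken as the smallest level a library can show, corresponded to between 0.0249 and 0.0536 CPM. All 8 members passed the filter on low counts in both experiments, *PROM1* in the knockdown mainly through the NTC libraries, where it was highest. *PROM1* was at the edge of detection, with 3 to 46 counts, and was under 10 counts in 4 of the 16 libraries, whereas no other member had fewer than 39 counts in any library. The markers fixed for the line, *PTPRC*, *CD33*, *MPO*, *SPI1* and *CSF2RA*, were present in all 16 libraries, with summed levels of 1646 to 6105 CPM. The epithelial markers *EPCAM*, *CDH1*, *ESRP1*, *GRHL2* and *KRT19*, which would mark the cells that conditioned the medium, had at most 8 counts in a library, whereas the keratins *KRT7*, *KRT8* and *KRT18* of the same list reached 1501, 1424 and 1810 counts.

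Per kb of exon (GENCODE 29), the median level over the 4 untreated and DMSO libraries was highest for *CD34* at 44.6 CPM per kb (31.5 to 57.2) and *SPINK2* at 42.7 (30.0 to 67.8), which do not differ beyond the spread of these libraries. *ANGPT1* followed with a level of 24.8 CPM per kb (15.4 to 40.0). *ADGRG1* (8.53, 5.09 to 10.0) and *ITGA6* (8.50, 8.22 to 10.6) had levels that overlapped, above *ITGA9* at 1.24 CPM per kb (1.18 to 2.0). The lowest levels were those of *SETBP1*, at 0.150 CPM per kb, and *PROM1*, at 0.0294. *MECOM* itself lay between *ITGA6* and *ITGA9*, at 5.60 CPM per kb. The length joins the exons of all annotated transcripts of a gene, 9219 bases for *CD34* and 772 for *SPINK2*, so this order depends on it.

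Upstream sequences are shown for *SPINK2* and *ADGRG1*, which fell with both shRNAs, and for *ITGA6*, which did not. They are the bases before the first listed RefSeq start (GRCh38.p14) that are free of GENCODE 29 exons, written 5′ to 3′ on the strand of the gene. The *SPINK2* stretch lies at chr4:56821870-56822119 on the minus strand, the *ADGRG1* stretch at chr16:57619488-57619692 on the plus strand, within the span of the gene and outside its exons, and the *ITGA6* stretch at chr2:172427086-172427335 on the plus strand. Capitals mark the letters of the ETS-type motif AGGAAG, here on the opposite strand of *SPINK2*.

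SPINK2: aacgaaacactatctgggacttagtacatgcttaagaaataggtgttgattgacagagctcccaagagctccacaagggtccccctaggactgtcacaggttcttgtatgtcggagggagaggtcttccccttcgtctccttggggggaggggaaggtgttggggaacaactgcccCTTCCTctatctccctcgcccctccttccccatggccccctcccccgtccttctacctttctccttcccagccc
ADGRG1: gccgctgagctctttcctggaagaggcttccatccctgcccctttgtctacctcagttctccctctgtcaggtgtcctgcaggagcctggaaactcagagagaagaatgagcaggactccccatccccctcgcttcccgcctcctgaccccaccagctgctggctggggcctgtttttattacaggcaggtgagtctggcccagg
ITGA6: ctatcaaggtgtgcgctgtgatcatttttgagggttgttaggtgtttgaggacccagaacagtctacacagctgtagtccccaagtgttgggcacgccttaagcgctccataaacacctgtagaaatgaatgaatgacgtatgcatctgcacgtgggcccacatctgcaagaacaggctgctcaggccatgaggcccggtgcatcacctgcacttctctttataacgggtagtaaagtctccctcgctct

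Windows before the first listed RefSeq start were searched for 6 of the 8 members, and *ANGPT1* and *ITGA9* were not among them. The search covered 5 motifs on both strands of the 250 bases before the start. The motifs GACAAGATA and GAAGATGAG, bound by the first and the second zinc-finger domain of EVI1, were found in none of the 6 windows and in 0.0989% and 0.260% of the windows of 27305 genes. The motif AGATAA of the GATA factors was also found in none of the 6, against 9.37% of all windows. The RUNX motif TGTGGT was in none of them, against 10.9%. AGGAAG was found in *SPINK2* and, 12 bases before the start and outside the stretch printed, in *ADGRG1*, against 28.7% of all windows. A missing match says only that these letters are not in the window. The windows of *CD34* and *PROM1* begin within annotated exons, so they are not upstream sequence free of exons.

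*MECOM*, the locus of EVI1, was read first as the check of the labels. Its count covers all transcripts of the locus, those of the longer MDS1-EVI1 included. The deposited files of the shEVI1-2531 libraries carry another shRNA number in their names, and they are named here by their labels, with no other check of which shRNA they hold. In the PARPi libraries, *MECOM* had a level of 28.4 CPM in untreated cells, 51.1, 50.9 and 63.6 CPM with DMSO at 12, 24 and 48 h, 46.1, 40.8 and 21.0 CPM with olaparib and 46.8, 31.4 and 8.54 CPM with talazoparib. It was lower than in DMSO of the same hour in all 6 inhibitor libraries. In the knockdown, the level of *MECOM* was 42.4 and 44.2 CPM with NTC at day 3 and day 6, 12.3 and 18.5 CPM with shEVI1-2531, and 4.51 and 4.03 CPM with shEVI1-2532. Both shRNAs lowered it, by 1.34 ± 0.19 (log2 fold change ± SE, n = 2 days, adjusted p = 0.000644 with edgeR) with shEVI1-2531 and by 3.04 ± 0.21 with shEVI1-2532 (adjusted p = 7.95e-07), and the difference between the shRNAs was called as well (log2 fold change -1.70 ± 0.20, adjusted p = 0.000138).

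With shEVI1-2532, 5 of the 8 members fell and 2 rose, whereas 19.9% of the 18606 genes tested fell and 21.2% rose. The 5 that fell were *CD34*, *ANGPT1*, *ADGRG1*, *SPINK2* and *SETBP1*, and the 2 that rose were the integrins *ITGA6* and *ITGA9*. With shEVI1-2531, 5 members fell and none rose, against 7.90% of all genes that fell and 9.49% that rose. These were *ADGRG1*, *CD34*, *PROM1*, *SPINK2* and *ANGPT1*. *PROM1* reached 10 counts in both NTC libraries and in 1 of the 4 knockdown libraries, so it passed the filter through the group where it was high, and its count as a call is not support. The median log2 fold change of the members was -2.14 with shEVI1-2532 and -1.92 with shEVI1-2531, and that of all genes tested 0.00 and 0.01. Both shRNAs share the NTC libraries. The members were chosen with earlier results of these data known, so the counts beside the shares of all genes are a description and no independent test.

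*CD34* showed the largest fall among the members with shEVI1-2532. Its level was 303 and 765 CPM with NTC at day 3 and day 6, 82.1 and 83.6 CPM with shEVI1-2531, and 4.02 and 3.37 CPM with shEVI1-2532. The groups did not overlap, and the levels with each shRNA were close at both days while those with NTC differed by 2.53-fold. In the fit this was a log2 fold change of -6.78 ± 0.34 with shEVI1-2532 (adjusted p = 1.29e-07) and -2.43 ± 0.28 with shEVI1-2531 (adjusted p = 0.000138).

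*PROM1*, the second stem cell surface protein, gave 25 and 46 counts with NTC, 3 and 9 with shEVI1-2531, and 11 and 7 with shEVI1-2532. All 4 knockdown libraries lay below both NTC libraries. Its log2 fold change was -2.29 ± 0.63 with shEVI1-2531 (adjusted p = 0.0265) and -1.41 ± 0.60 with shEVI1-2532, which did not pass (adjusted p = 0.0798). The call with shEVI1-2531 was lost without NTC day 3 (adjusted p = 0.0637), without shEVI1-2531 day 3 (0.122) or without NTC day 6 (0.266). With shEVI1-2532 it passed with scaling to the library total (-1.71, adjusted p = 0.0407), without shEVI1-2532 day 3 (-2.26, 0.0363) and without shEVI1-2531 day 6 (-1.45, 0.0373).

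Neither integrin chain was called lower. *ITGA6* had a level of 39.6 and 52.0 CPM with NTC, 34.1 and 54.0 CPM with shEVI1-2531, and 38.2 and 80.5 CPM with shEVI1-2532, so that only the shEVI1-2532 library of day 6 stood above the others. The log2 fold change with shEVI1-2532 was 0.60 ± 0.18 (adjusted p = 0.0189), and the call was lost with scaling to the library total (log2 fold change 0.29, adjusted p = 0.196), without NTC day 6 (adjusted p = 0.238) and without shEVI1-2532 day 6 (adjusted p = 0.425). With shEVI1-2531 it was 0.08 ± 0.18 (adjusted p = 0.810), and it turned to -0.09 with scaling to the library total.

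*ITGA9* had a level of 4.80 and 11.6 CPM with NTC, 5.90 and 12.3 CPM with shEVI1-2531, and 7.30 and 14.8 CPM with shEVI1-2532. Each knockdown library exceeded the NTC library of its day, but the days differed more than the shRNAs and the groups overlapped. The log2 fold change was 0.78 ± 0.18 with shEVI1-2532 (adjusted p = 0.00441; 0.47 and adjusted p = 0.0506 with scaling to the library total) and 0.35 ± 0.18 with shEVI1-2531 (adjusted p = 0.202). TMM scaling moved the ratios of the knockdown libraries upward by 0.17 to 0.35 on the log2 scale relative to the library total, for every gene alike, and those of the inhibitor libraries of 48 h by 0.19 to 0.27.

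The receptor *ADGRG1* had a level of 64.7 and 155 CPM with NTC, 12.6 and 14.6 CPM with shEVI1-2531, and 6.31 and 7.05 CPM with shEVI1-2532. The groups did not overlap. In the fit, the log2 fold change was -2.74 ± 0.24 with shEVI1-2531 (adjusted p = 3.00e-05), the largest fall of a member with this shRNA, and -3.64 ± 0.25 with shEVI1-2532 (adjusted p = 8.58e-07).

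The ligand *ANGPT1* had a level of 134 and 99.6 CPM with NTC, 36.8 and 28.5 CPM with shEVI1-2531, and 6.74 and 1.38 CPM with shEVI1-2532. Every group was separate from the others, and the level of day 6 lay below that of day 3 in each. The log2 fold change was -4.79 ± 0.37 with shEVI1-2532 (adjusted p = 1.73e-06) and -1.66 ± 0.31 with shEVI1-2531 (adjusted p = 0.00364), the second of which was lost without NTC day 6 (adjusted p = 0.0907).

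*SPINK2* had a level of 48.2 and 39.3 CPM with NTC, 11.9 and 6.41 CPM with shEVI1-2531, and 9.31 and 3.20 CPM with shEVI1-2532. Both shRNAs lay far below NTC, and their ranges overlapped each other. Its log2 fold change was -2.18 ± 0.24 with shEVI1-2531 (adjusted p = 0.000122) and -2.68 ± 0.25 with shEVI1-2532 (adjusted p = 6.29e-06).

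*SETBP1* gave 123 and 242 counts with NTC, 75 and 131 with shEVI1-2531, and 43 and 39 with shEVI1-2532. In CPM the shEVI1-2532 libraries (0.429 and 0.388) lay below all others, whereas those of shEVI1-2531 (0.785 and 1.15) overlapped NTC (1.02 and 2.22). The log2 fold change was -1.59 ± 0.34 with shEVI1-2532 (adjusted p = 0.00298; 0.0539 without NTC day 6 and 0.0681 without shEVI1-2532 day 6) and -0.52 ± 0.32 with shEVI1-2531 (adjusted p = 0.297).

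**Figure D1:**
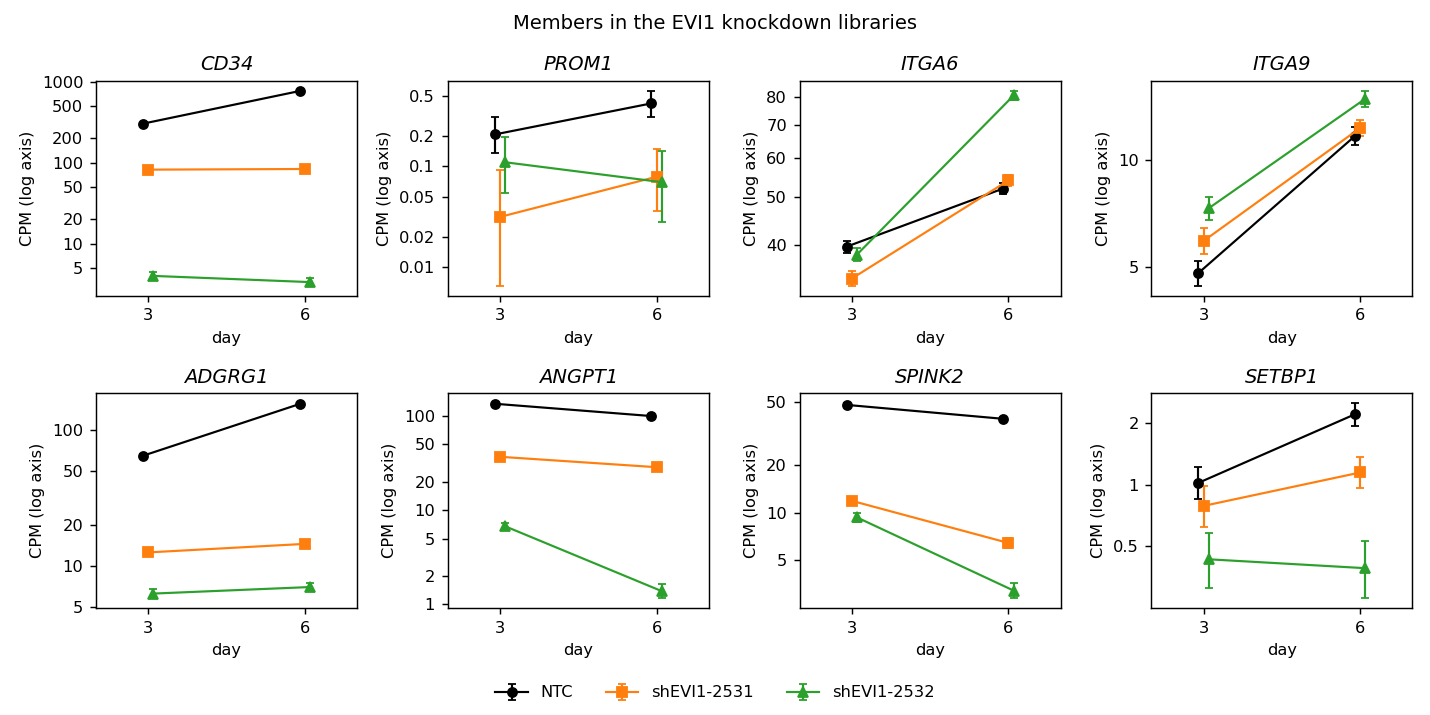
Level of each member in CPM (log axis, scale differs by panel) at day 3 and day 6 with NTC, shEVI1-2531 or shEVI1-2532. Each point is 1 library and bars are 95% exact binomial intervals of the counts. *CD34*, *ADGRG1*, *ANGPT1* and *SPINK2* lie below NTC with both shRNAs at both days, whereas *ITGA9* lies above NTC of the same day in all 4 knockdown libraries.

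**Figure D2:**
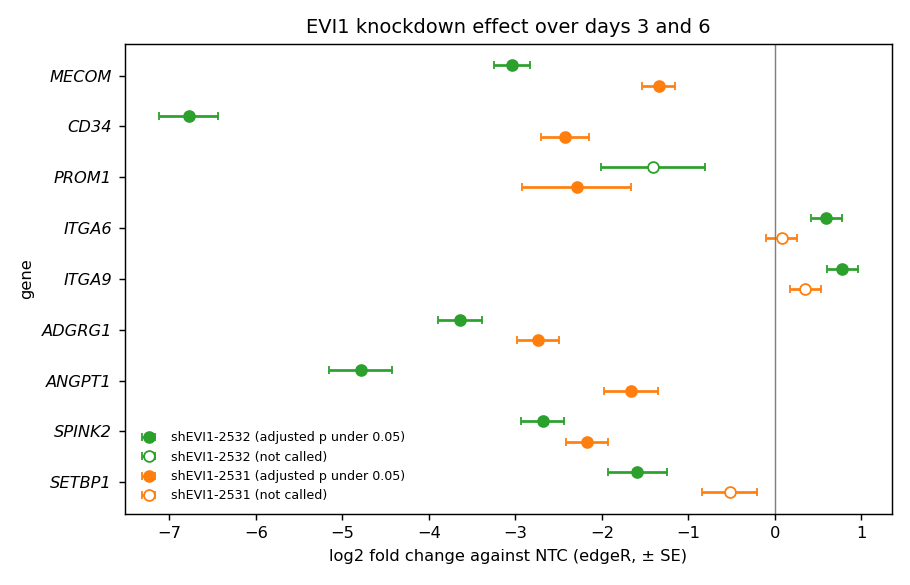
Log2 fold change against NTC from the edgeR fit with day as a factor, with its SE, for *MECOM* and the 8 members. Filled points have an adjusted p under 0.05. The points of both shRNAs lie apart for *CD34* (-6.78 and -2.43) and *ANGPT1* (-4.79 and -1.66) and closer together for *SPINK2* (-2.68 and -2.18).

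The members differed in how far the shRNAs parted. The difference between shEVI1-2532 and shEVI1-2531 was called lower for 4 of 8 members, against 12.0% of all genes, and higher for 0, against 12.2%. It was -4.35 ± 0.30 for *CD34* (log2, adjusted p = 9.32e-06) and -3.13 ± 0.35 for *ANGPT1* (adjusted p = 9.93e-05). It was smaller for *SETBP1* (-1.06 ± 0.35, adjusted p = 0.0418) and *ADGRG1* (-0.90 ± 0.23, adjusted p = 0.0148). Both of these were lost without shEVI1-2531 day 3 (adjusted p = 0.115 and 0.111), and *SETBP1* also without shEVI1-2532 day 6 (0.429). For *SPINK2* the difference was -0.51 ± 0.24 (adjusted p = 0.141), for *ITGA6* 0.52 ± 0.18 (adjusted p = 0.0537), for *ITGA9* 0.42 ± 0.18 (adjusted p = 0.106) and for *PROM1* 0.88 ± 0.72 (adjusted p = 0.410). The call for *SPINK2* and *ITGA6* changed with the library left out: without shEVI1-2532 day 3 the adjusted p was 0.0104 for *SPINK2* and 0.00359 for *ITGA6*, and without either NTC library both passed as well (0.0386 to 0.0413).

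With PARPi, none of the 8 members was called over the 3 time points in the edgeR fit, either for the mean of both inhibitors, with 4.17% of 17218 genes called, for olaparib (0.639%), for talazoparib (4.0%) or for talazoparib against olaparib (0%, where 354 genes had an unadjusted p below 0.05). The mean effects of the members lay between -0.72 and 0.43. *CD34* had a mean effect of -0.72 ± 0.29 (log2, adjusted p = 0.122), *ANGPT1* of -0.69 ± 0.30 (adjusted p = 0.147) and *ITGA9* of 0.43 ± 0.11 (adjusted p = 0.0527). At an unadjusted p under 0.05, 2 members passed for the mean effect, 2 for olaparib, 2 for talazoparib and 0 for their difference, against 35.1%, 18.4%, 36.3% and 2.06% of all genes. DESeq2 called 2, 0, 2 and 0 members, against 20.0%, 3.90%, 21.7% and 0.00581% of all genes. Without DMSO 12 h, where 27.6% of all genes were called, the mean effect was called for *CD34* (-1.05, adjusted p = 0.0311) and *ITGA9* (0.50, adjusted p = 0.0243), as it was by DESeq2 (adjusted p = 0.0481 and 0.0117). Without the 12 h libraries, with 22.6% of all genes called, *CD34* (-1.06, adjusted p = 0.0188) and *ANGPT1* (-0.95, adjusted p = 0.0474) passed, and without talazoparib 12 h, with 19.5% called, *ITGA9* did (adjusted p = 0.0495). The counts of members are near these shares, so they are no result about the members. The differences between talazoparib and olaparib were at most 0.38 in size, reached by *SPINK2* (-0.38 ± 0.18, adjusted p = 0.952).

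The effect of PARPi changed with time for 3 members, all toward lower levels, and for 0 toward higher ones, against 8.31% and 8.15% of all genes. Per doubling of the hours, the inhibitor effect on *CD34* moved by -0.83 ± 0.13 on the log2 scale (adjusted p = 6.74e-10), that on *ANGPT1* by -0.71 ± 0.13 (adjusted p = 4.18e-09) and that on *ADGRG1* by -0.34 ± 0.13 (adjusted p = 0.0466), beside -0.94 ± 0.13 for *MECOM*. For *SETBP1* it was -0.53 ± 0.22 (adjusted p = 0.190). Each of the 3 calls was lost without a library of 48 h. *CD34* was -0.31 (adjusted p = 0.150) without DMSO 48 h, *ANGPT1* was -0.27 (adjusted p = 0.197) without talazoparib 48 h, and *ADGRG1* was 0.39 (adjusted p = 0.623) without DMSO 48 h and -0.21 (0.690) without talazoparib 48 h. The call of *ADGRG1* was also lost without olaparib 48 h (adjusted p = 0.0536), talazoparib 12 h (0.0732), DMSO 24 h (0.0571) or olaparib 24 h (0.130), and that of *SPINK2* was gained without talazoparib 12 h (0.0236). DESeq2, with 12.3% of all genes called, called *CD34* alone among the members and gave an adjusted p of 0.127 for *ANGPT1* and 0.251 for *ADGRG1*.

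*CD34* had a level of 527 CPM in untreated cells, 391, 291 and 432 CPM with DMSO at 12, 24 and 48 h, 318, 215 and 138 CPM with olaparib and 453, 244 and 94.5 CPM with talazoparib. Both inhibitor libraries of 48 h lay below every other library of this experiment. Against DMSO of 48 h the log2 ratio was -1.46 (95% confidence interval -1.50 to -1.43, counting error only, as for all ratios of single libraries) with olaparib and -1.92 (-1.97 to -1.88) with talazoparib. At 12 h the inhibitors differed in direction, with -0.28 (-0.30 to -0.25) for olaparib and 0.22 (0.20 to 0.25) for talazoparib.

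*PROM1* gave 13 counts in untreated cells, 7, 18 and 37 with DMSO, 12, 11 and 23 with olaparib and 12, 12 and 17 with talazoparib. All 6 matched intervals included 0, so a difference was not detectable at this depth.

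*ITGA6* had a level of 55.1 CPM in untreated cells, 69.3, 53.7 and 55.9 CPM with DMSO, 68.1, 67.5 and 53.5 CPM with olaparib and 67.5, 65.5 and 58.9 CPM with talazoparib. The groups overlapped and the whole range was 53.5 to 69.3 CPM. The log2 ratio at 48 h was 0.12 with olaparib, which turned to -0.06 with scaling to the library total, and 0.34 with talazoparib.

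*ITGA9* had a level of 16.6 CPM in untreated cells, 10.4, 9.75 and 10.0 CPM with DMSO, 11.8, 14.0 and 12.1 CPM with olaparib and 13.7, 13.5 and 12.2 CPM with talazoparib. All 6 inhibitor libraries lay above all 3 DMSO libraries and below the untreated one. The log2 ratios were 0.19 to 0.55.

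*ADGRG1* had a level of 85.3 CPM in untreated cells, 62.5, 44.1 and 86.6 CPM with DMSO, 66.9, 73.8 and 62.1 CPM with olaparib and 81.5, 64.1 and 49.2 CPM with talazoparib. The inhibitor libraries lay above DMSO at 12 and 24 h and below it at 48 h, and DMSO itself spanned a wider range than either inhibitor. The log2 ratio went from 0.72 (0.66 to 0.79) at 24 h to -0.29 (-0.35 to -0.23) at 48 h with olaparib, and from 0.57 (0.50 to 0.64) to -0.55 (-0.61 to -0.48) with talazoparib.

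*ANGPT1* had a level of 110 CPM in untreated cells, 150, 203 and 285 CPM with DMSO, 132, 163 and 135 CPM with olaparib and 132, 165 and 48.9 CPM with talazoparib. It rose in level with the hours in DMSO, was below DMSO in all 6 inhibitor libraries, and was lowest with talazoparib at 48 h. The log2 ratio at 48 h was -0.90 (-0.93 to -0.86) with olaparib and -2.28 (-2.34 to -2.22) with talazoparib.

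*SPINK2* had a level of 33.2 CPM in untreated cells, 23.2, 32.7 and 52.3 CPM with DMSO, 24.8, 34.7 and 54.9 CPM with olaparib and 21.8, 32.5 and 26.9 CPM with talazoparib. The olaparib libraries followed DMSO through the 48 h, whereas talazoparib at 48 h lay below untreated cells. The log2 ratio at 48 h was 0.25 (0.19 to 0.32) with olaparib and -0.69 (-0.78 to -0.60) with talazoparib. With scaling to the library total these were 0.07 and -0.96, so the rise with olaparib came mostly from the scaling.

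*SETBP1* gave 255 counts in untreated cells, 89, 116 and 166 with DMSO, 103, 107 and 84 with olaparib and 132, 84 and 76 with talazoparib. It was highest in untreated cells, at 3.71 CPM, and in DMSO it went from 1.37 CPM at 12 h to 2.61 CPM at 48 h. The log2 ratio at 48 h was -0.71 (-1.11 to -0.33) with olaparib and -0.67 (-1.09 to -0.27) with talazoparib.

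**Figure D3:**
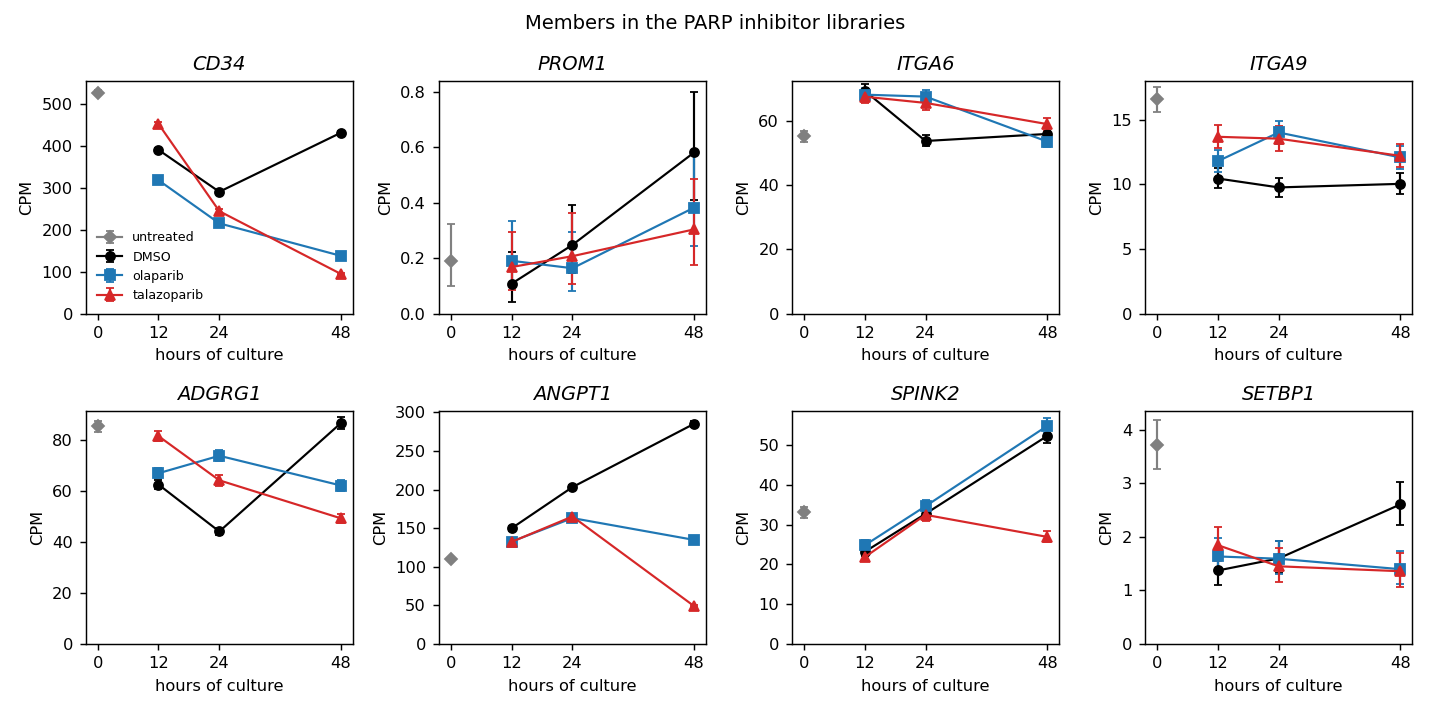
Level of each member in CPM against the hours of culture, in untreated cells and with DMSO, olaparib or talazoparib. Each point is 1 library and bars are 95% exact binomial intervals of the counts, often smaller than the marker. *CD34*, *ANGPT1*, *SETBP1* and *ADGRG1* lie below DMSO at 48 h with both inhibitors, as does *PROM1* at 17 to 37 counts. *SPINK2* lies below it with talazoparib alone. The DMSO libraries of 48 h are themselves higher than those of 24 h for each of these genes.

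The control libraries moved by amounts that are not small beside the PARPi effects. Over the untreated and DMSO libraries, the ratio of the highest to the lowest level was 1.29 for *ITGA6*, 1.70 for *ITGA9*, 1.81 for *CD34*, 1.97 for *ADGRG1*, 2.26 for *SPINK2*, 2.60 for *ANGPT1*, 2.71 for *SETBP1* and 5.39 for *PROM1*, at 7 to 37 counts. Between the NTC libraries it was 1.23 for *SPINK2*, 1.31 for *ITGA6*, 1.35 for *ANGPT1* and 2.04 to 2.53 for *PROM1*, *SETBP1*, *ADGRG1*, *ITGA9* and *CD34*.

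Set side by side with the *MECOM* RNA left in the cells, the members took different places in both experiments, which differ in agent and in duration and were not tested against each other. With talazoparib at 48 h, *MECOM* was at 16.2% of its control (TMM-scaled), *ANGPT1* at 20.6%, *CD34* at 26.3%, *SPINK2* at 61.9% and *ADGRG1* at 68.4%. With shEVI1-2532 at day 3, *MECOM* was at 12.7%, *CD34* at 1.58%, *ANGPT1* at 5.98%, *ADGRG1* at 11.6% and *SPINK2* at 23.1%. At day 6 *MECOM* was at 11.6%, *CD34* at 0.561%, *ANGPT1* at 1.77%, *ADGRG1* at 5.79% and *SPINK2* at 10.4%. With shEVI1-2531 at day 3, *MECOM* was at 32.4%, *ANGPT1* at 30.7%, *CD34* at 30.4%, *SPINK2* at 27.7% and *ADGRG1* at 22.0%, so that the members lay nearer to *MECOM*. With shEVI1-2531 at day 6, *MECOM* was at 47.1%, *ADGRG1* at 10.6%, *CD34* at 12.3%, *SPINK2* at 18.4% and *ANGPT1* at 32.3%. The NTC levels of *CD34* and *ADGRG1* were higher at day 6 than at day 3, by factors of 2.53 and 2.40. With olaparib at 48 h, *MECOM* was at 37.7%, *CD34* at 36.3%, *ANGPT1* at 53.8%, *ADGRG1* at 81.6% and *SPINK2* at 119%. Over the 4 knockdown libraries *SPINK2* was at 10.4% to 27.7% of control and *ADGRG1* at 5.79% to 22.0%, whereas no inhibitor library had *SPINK2* below 61.9% or *ADGRG1* below 68.4%.

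**Figure D4:**
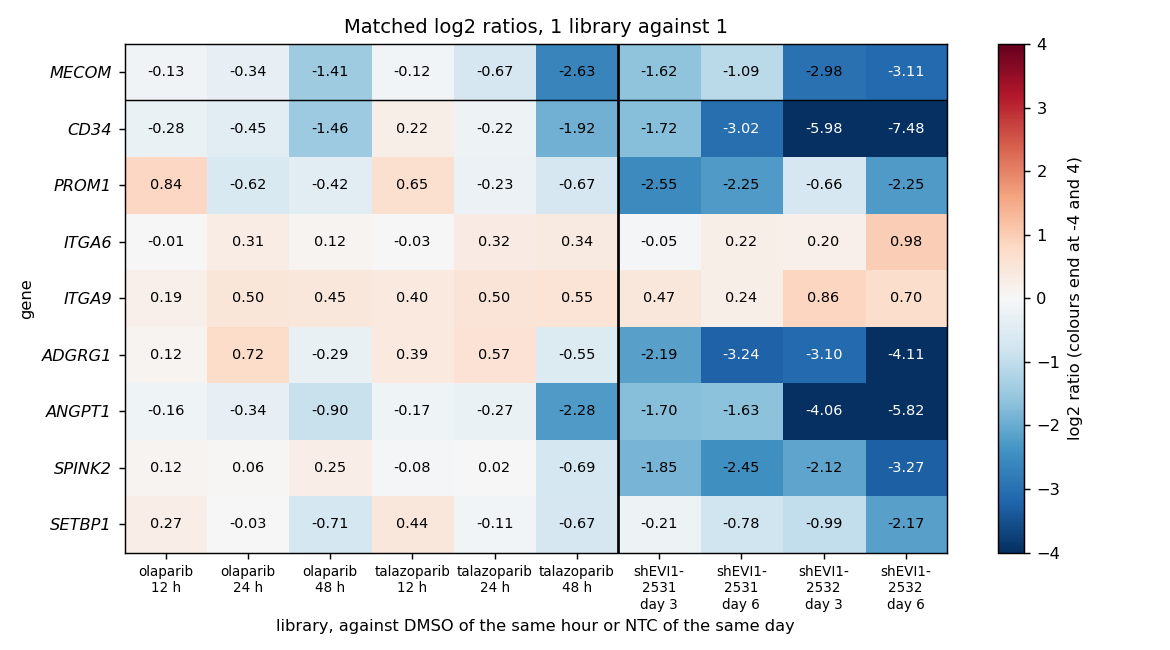
Log2 ratio (TMM-scaled) of each library to DMSO of the same hour or NTC of the same day, for *MECOM* and the 8 members. Each cell compares 1 library with 1, and colours end at -4 and 4. In the knockdown columns *CD34*, *PROM1*, *ADGRG1*, *ANGPT1*, *SPINK2* and *SETBP1* are below 0 throughout, and among the inhibitor columns the lowest values are those of 48 h, with -2.63 for *MECOM*, -2.28 for *ANGPT1* and -1.92 for *CD34* with talazoparib.

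Levels were also compared as patterns, by Pearson's r of log2 CPM centred within each experiment over the 16 libraries, which share experiment and depth, so r is a description. *CD34* (r = 0.88) and *ANGPT1* (r = 0.88) were the members most like *MECOM*, followed by *ADGRG1* (0.73), *SETBP1* (0.59) and *SPINK2* (0.56), whereas *ITGA6* (-0.54) and *ITGA9* (-0.58) ran opposite. In the 10 PARPi libraries alone, r with *MECOM* was 0.83 for *ANGPT1* and 0.74 for *CD34*, but 0.11 for *ADGRG1*, 0.05 for *SETBP1* and -0.18 for *SPINK2*. Among the members, *CD34* was most like *ANGPT1* (r = 0.89) and *ADGRG1* (r = 0.86), and *ITGA6* was most like *ITGA9* (r = 0.75). Of genes with a mean log2 CPM above 3, the 2 most like *CD34* were *NPR3*, a receptor of natriuretic peptides (r = 0.98), and *FADS2*, a fatty acid desaturase (0.98). Those most like *ANGPT1* were *ST8SIA6* (0.97) and *RAB27B* (0.96), those most like *SPINK2* *PHYH* (0.96) and *CYTOR* (0.93), and those most like *ADGRG1* *OAS3* (0.95) and *SVOPL* (0.94). *ADCY3* (0.91) and *ENTPD4* (0.90) followed *ITGA6*, *WDTC1* (0.92) and *KDM4B* (0.91) followed *ITGA9*, and *JUP* (0.91) and *IFITM2* (0.91) followed *SETBP1*.

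Other genes of the same biology were read from lists, which like the members were chosen with earlier results of these data known. Of the 17 genes of the LSC17 leukemic stem cell score, which holds *CD34* and *ADGRG1*, 15 were tested in the knockdown, and 12 fell and 2 rose with shEVI1-2532, where 19.9% of all genes fell and 21.2% rose. The median log2 fold change was -1.92. With shEVI1-2531, 8 fell and 2 rose, against 7.90% and 9.49% of all genes. *FAM30A*, a long non-coding RNA, fell from 231 and 499 CPM with NTC to 6.08 and 8.99 CPM with shEVI1-2532 (log2 fold change -5.23 ± 0.19, adjusted p = 4.56e-08). *DNMT3B*, a DNA methyltransferase, fell from 106 and 186 CPM to 9.89 and 11.2 CPM (log2 fold change -3.44 ± 0.17, adjusted p = 1.29e-07), and *SMIM24* from 6.49 and 8.66 CPM to 0.389 and 0.258 CPM. *AKR1C3*, among the 2 that rose with each shRNA, had 0 counts in both NTC libraries and stayed at or under 0.199 CPM in the knockdown. It passed the filter through the knockdown libraries, where it was higher, so its call is not support.

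Of 12 other genes reported to be regulated by EVI1, 11 were tested, and 6 rose and 4 fell with shEVI1-2532, with a median log2 fold change of 0.54, against 21.2% of all genes that rose and 19.9% that fell. With shEVI1-2531, 3 rose, 1 fell and 7 did not pass. *TEK* is among the 4 that fell with shEVI1-2532, and its call is not support, for the reason given with the binding partners below. *ERG*, an ETS factor of stem cells, fell by 5.91 ± 0.36 on the log2 scale with shEVI1-2532 (adjusted p = 4.07e-07) and fell by 3.73 ± 0.31 with shEVI1-2531 (adjusted p = 2.07e-05), from 23.4 and 46.1 CPM with NTC to 0.578 and 0.338 CPM with shEVI1-2532. *GATA2*, a factor of stem cell maintenance whose enhancer is moved by inv(3), fell by 0.81 ± 0.15 with shEVI1-2532 (adjusted p = 0.00118), and with shEVI1-2531 its log2 fold change was -0.23 ± 0.15 (adjusted p = 0.335). *CEBPA*, a factor of granulocyte and monocyte differentiation, rose with both (0.97 ± 0.13, adjusted p = 0.000117, and 1.11 ± 0.13, adjusted p = 0.000197). *FOS*, part of the AP-1 factor, rose by 2.66 ± 0.29 with shEVI1-2532 and by 1.14 ± 0.28 with shEVI1-2531 (adjusted p = 2.19e-05 and 0.0152).

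Of 21 genes that encode relatives or binding partners of the members, 17 were tested, and 7 fell and 4 rose with shEVI1-2532, against 19.9% of all genes that fell and 21.2% that rose. With shEVI1-2531, 2 fell and 3 rose. *ANGPT2*, the second angiopoietin, fell by 4.02 ± 0.36 on the log2 scale with shEVI1-2532 (adjusted p = 5.00e-06) and fell by 2.29 ± 0.31 with shEVI1-2531 (adjusted p = 0.00045), from a level of 2.57 and 2.98 CPM with NTC. *TEK*, the receptor of both angiopoietins, was near the limit of detection, with 0.0414 and 0.229 CPM with NTC, 0 and 0.0298 CPM with shEVI1-2532 (adjusted p = 0.0322), and 0.0733 and 0.228 CPM with shEVI1-2531 (log2 fold change 0.45 ± 0.67, adjusted p = 0.696). It passed the filter through libraries other than those of shEVI1-2532, where it was higher, so its call as a fall is not support. *TEK* is counted both in this list and in that of genes reported to be regulated by EVI1. *SPINK4* fell by 2.75 ± 0.47 (adjusted p = 0.000591) from 0.812 and 0.568 CPM, and *TGM2*, a ligand of ADGRG1, rose by 2.30 ± 0.44 (adjusted p = 0.0014) to 0.558 and 1.05 CPM.

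Of 21 other surface proteins of stem and progenitor cells, 19 were tested, and 10 rose and 5 fell with shEVI1-2532, against 21.2% of all genes that rose and 19.9% that fell. With shEVI1-2531, 6 rose and 3 fell. *CD96* fell from 2.43 and 2.28 CPM with NTC to 0.219 and 0.119 CPM (log2 fold change -3.56 ± 0.38, adjusted p = 1.74e-05) and *FLT3* from 0.249 and 0.174 CPM to 0.00997 and 0.00994 CPM, which is 1 count each. *FLT3* passed the filter through libraries other than those of shEVI1-2532, where it was higher, so its call among the 5 is not support. *CD38*, a marker gained as progenitors mature, rose with shEVI1-2532 (3.44 ± 0.44, adjusted p = 6.74e-05) and with shEVI1-2531 (4.21 ± 0.44, adjusted p = 8.42e-05), from 0.0497 and 0.192 CPM with NTC to between 0.578 and 1.92 CPM. *CD93* rose by 1.72 ± 0.17 with shEVI1-2532 (adjusted p = 8.55e-06).

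Monocyte markers moved with the fall of *CD34*. Of 10 markers, 8 rose with shEVI1-2532, 6 with shEVI1-2531 and 0 fell with either, and for PARPi 8 rose in effect with time. Of all genes, 21.2%, 9.49% and 8.15% did so. *CD68* is among those called with shEVI1-2532 (log2 fold change 2.31 ± 0.73, adjusted p = 0.0235 with edgeR), at 25 counts or fewer in every library. It passed the filter through knockdown libraries, where it was higher, so its call is not support. Their summed level was 1608 and 1327 CPM with NTC, 2934 and 2687 CPM with shEVI1-2531, and 8757 and 9290 CPM with shEVI1-2532, so that the groups did not overlap. In the other experiment it was 1292 CPM in untreated cells, 1152 to 1487 CPM with DMSO, 1409, 2931 and 8976 CPM with olaparib and 1408, 4317 and 14182 CPM with talazoparib at 12, 24 and 48 h. *LYZ*, the lysozyme of monocytes and granulocytes, rose from 206 and 183 CPM with NTC to 3913 and 5230 CPM with shEVI1-2532, and *CD14* from 0.456 and 0.687 CPM to 10.4 and 23.8 CPM. *FCN1* (log2 fold change 3.65 ± 0.28) and *ITGAM* (3.27 ± 0.14) rose as well. In bulk RNA, fewer cells that express a gene and less RNA per cell cannot be told apart, and the part of the monocyte markers in the falls of the members was not tested.

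Among the epithelial markers, *KRT7* fell and *KRT8* and *KRT18* rose with shEVI1-2532, at summed levels of 14.7 to 33.4 CPM for the list over all libraries, and the 5 others were at or near 0. Of the 5 markers of the line, *SPI1* (1.00 ± 0.13), *CD33* (0.88 ± 0.13) and *CSF2RA* (0.72 ± 0.13) rose with shEVI1-2532 and 0 fell. 

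In the files (GRCh38), *CD34* (ENSG00000174059) lies at chr1:207880972-207911402, *PROM1* (ENSG00000007062) at chr4:15963076-16084378, *SPINK2* (ENSG00000128040) at chr4:56809860-56821742 and *ANGPT1* (ENSG00000154188) at chr8:107249482-107498055, all on the minus strand. On the plus strand lie *ITGA6* (ENSG00000091409) at chr2:172427354-172506459, *ITGA9* (ENSG00000144668) at chr3:37452115-37823507, *ADGRG1* (ENSG00000205336) at chr16:57610652-57665580 and *SETBP1* (ENSG00000152217) at chr18:44680173-45068510. Annotated genes of the other strand overlap *CD34*, *ADGRG1*, *ITGA6*, *ITGA9*, *SETBP1* and *SPINK2*, genes of the same strand overlap *PROM1*, *SETBP1*, *ITGA9* and *SPINK2*, and none overlaps *ANGPT1*. Whether counting used strand is not stated, so reads of a member and of a gene on the other strand cannot be told apart.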

How the data were processed

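Gene counts of 16 MUTZ-3 libraries (TruSeq Stranded mRNA), 1 per condition, were analysed. Per the submitters' processing notes, STAR, Picard and featureCounts were used with hg38/GRCh38, with versions and annotation release not given in the sources used here. The authors deposited raw counts per gene, from which all values come, and TPM, which the authors deposited as counts over the whole gene span, introns included, and which were not used. CPM are counts scaled to the same library total.

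A gene entered the fit with 10 counts or more in 3 of 9 PARPi or 2 of 6 knockdown libraries. TMM scaling was followed by the quasi-likelihood test of edgeR 4.0.16 in R 4.3.3, with time point or day as a factor. The change with time tested the slopes of both inhibitors on the log2 of hours jointly and gives the mean slope. Adjusted p follow Benjamini-Hochberg over all genes tested, with a threshold of 0.05. The untreated library entered ratios only. Ratios of single libraries are TMM-scaled with 95% exact binomial (Clopper-Pearson) intervals, which cover counting error only. DESeq2 1.42.0, other scalings, filters, thresholds and models, and each library or time point left out were alternatives. The steps were tested on simulated data.

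The members and lists were chosen with earlier results of these data known. The named genes are the members, *MECOM*, the 2 genes most like each member with a mean log2 CPM above 0 (prior count 2), and of each other list up to 4 genes with the largest change with shEVI1-2532 among those called, with *CEBPA*, *GATA2* and *ERG* in any case. The values of 1 gene that this rule names are not reported here. Promoter sequences are those of RefSeq (GRCh38.p14).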

Additional observations from a re-analysis of the deposited data

Results flagged for a closer look

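The difference between the shRNAs was itself significant for 4 members, against 12.0% of all genes called lower. The calls of *SETBP1* and *ADGRG1* were lost without shEVI1-2531 day 3. The effect of shEVI1-2532 minus that of shEVI1-2531 was -4.35 for *CD34*, -3.13 for *ANGPT1*, -1.06 for *SETBP1* and -0.90 for *ADGRG1* on the log2 scale, each lower with shEVI1-2532, and that of *MECOM* itself was -1.70.

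The effect of PARPi differed between the time points for 3 members, against 8.31% of all genes called lower. Per doubling of the hours it moved by -0.83 for *CD34*, by -0.71 for *ANGPT1* and by -0.34 for *ADGRG1* on the log2 scale. Each of the 3 calls was lost without a library of 48 h. No condition holds 4 libraries, so no library could be tested as an outlier of its group.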

How the results depend on the processing

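The models match libraries by time point or day, and the labels give no replicate numbers by which to pair them further. The count of members called changed as follows, with the share of all genes called in brackets. For the mean PARPi effect it was 2 with DESeq2 (20.0%), 1 with upper quartile normalization (5.07%) and 2 with no filter on low counts (11.2%). With a library or time point left out it was 0 to 2 (0% to 27.6%), against 0 (4.17%). For talazoparib it was 2 with DESeq2 (21.7%), 1 with upper quartile normalization (5.76%) and 1 with no filter (11.6%). With libraries left out it was 0 to 2 (0% to 29.3%), against 0 (4.0%). For the change with time it was 1 with DESeq2 (12.3%) and 1 to 3 with libraries left out (3.51% to 18.8%), against 3 (16.5%). With both shRNAs as 1 group it was 2 (1.66%), against 7 (41.1%) for shEVI1-2532 and 5 (17.4%) for shEVI1-2531. For shEVI1-2531 it was 3 with DESeq2 (18.4%) and 2 without the day in the model (3.04%). With libraries left out it was 3 to 5 (10.1% to 21.1%), and for shEVI1-2532 5 to 8 (29.5% to 46.3%). For the difference between the shRNAs it was 2 at an adjusted p under 0.01 (12.5%) and 2 without the day (4.95%). With libraries left out it was 2 to 6 (15.6% to 27.5%), against 4 (24.2%). The other 115 recomputed counts stayed within 1.5 times the count reported. The direction turned for *ITGA6* with shEVI1-2531 (-0.089 with the library total only, and -0.14 to 0.32 with libraries left out, the first without NTC day 6), for its ratios with olaparib at 48 h (-0.062) and shEVI1-2532 at day 3 (-0.053) with the library total only, for the slope of *ADGRG1* (-1.07 to 0.39 with libraries left out, the second without DMSO 48 h) and for the likeness of *SPINK2* to *MECOM* in the PARPi libraries alone (-0.18). Except where the alternative holds fewer libraries, the cause was not tested. At 3 to 46 counts, depth limits *PROM1*.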
